A study of Danio rerio with 4 samples.

Results

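The genes described here are twist1a, twist1b, prrx1a and prrx1b, 4 of the 31953 genes in a table of RNA-seq values from zebrafish (Danio rerio) pharyngeal arch cells. They were picked by gene symbol, as transcription factors of the head mesenchyme that comes from the neural crest, with earlier results of these data known. Each symbol matched 1 row. Their Ensembl gene identifiers in the table are ENSDARG00000030402 for twist1a, ENSDARG00000076010 for twist1b, ENSDARG00000033971 for prrx1a and ENSDARG00000042027 for prrx1b. RefSeq lists Twist1b among the other names of twist1a and Twist1a among those of twist1b, so the identifiers fix which gene is meant.

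Twist1 is a basic helix-loop-helix (bHLH) protein that binds DNA as a dimer, often with an E protein, and Id proteins hold E proteins back from DNA. In mouse, Twist1 is needed for cranial crest cells to become skeletal mesenchyme, and loss of 1 copy of human TWIST1 causes early fusion of skull sutures. Prrx1 is a paired-related homeodomain protein of limb and head mesenchyme, and mice that lack it have defects of the jaw and skull. In zebrafish arches, prrx1 genes act on the dorsal side with Jagged-Notch signalling to hold back cartilage. Each factor has an a and a b copy in zebrafish, retained from the fish genome duplication.

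Every embryo carried the reporter transgenes fli1a:GFP and sox10:DsRed, and at 36 hours post-fertilization (hpf) the cells showing green as well as red fluorescence were sorted for RNA. Embryos mutant for nr2f2 and nr2f5, which encode orphan nuclear receptors, gave 2 libraries, mutant 1 and mutant 2; they were recognised by a gap in the eye (coloboma), and no driver is labelled for them. Embryos with sox10:Gal4 alone, a driver active in the crest lineage, gave 1 control library, and embryos with sox10:Gal4 and UAS:Nr2f5 gave 1 library; both kinds were genotyped on fin tissue taken at 24 hpf. Embryos were pooled: 37 and 84 for the mutant libraries, with no statement of which number belongs to which, 69 for the control and 84 for UAS:Nr2f5. Whether the mutants were separate clutches is not stated, and p-values then measure only the spread between these libraries, which may be technical. Differences of driver and biopsy cannot be told apart from that of the mutations, whether the mutants are compared with the control or with UAS:Nr2f5.

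Levels are in RPM, reads per 1000000, on a scale that is assumed and has no division by gene length. RPM levels are therefore compared between libraries for 1 gene and never between genes. On the assumed scale the values imply totals of 34787206 and 22677739 reads for the mutants, 29943419 for the control and 10127922 for the library labelled UAS:Nr2f5. Implied reads in the listed genes came to 5286229 and 3590905, 4467228 and 1498321 in that order. nr2f5 was at 12.2 and 14.7 RPM in the mutants, 28.8 in the control and 30.3 in the library labelled UAS:Nr2f5, so no gain of nr2f5 is seen there and directions drawn from that library rest on its label. For nr2f2 the mutants had 38.9 and 30.9 RPM, the control 41.4 and the library labelled UAS:Nr2f5 28.1. The arch crest markers pdgfra, fli1a and sox10 were detected in every library, sox10 at 17.4 and 24.9 RPM in the mutants, 8.72 in the control and 5.73 in the library labelled UAS:Nr2f5.

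Levels of all 4 genes were highest in the mutants, and the Twist1 genes were lowest in the library labelled UAS:Nr2f5, whereas prrx1a was at the same level there as in the control. Mutant 1 held 35.4 RPM of twist1a and mutant 2 held 41.6, the control 27.8 and the library labelled UAS:Nr2f5 15.1, from 1233, 943, 832 and 153 reads. Both mutants lay above the control, and the control above the library labelled UAS:Nr2f5. The mutants differed from each other by a ratio of 1.17, with a 95% counting interval of 1.08 to 1.28. Mutant 1 held 22.9 RPM of twist1b and mutant 2 held 22.6, the control 11.8 and the library labelled UAS:Nr2f5 7.90, from 798, 512, 353 and 80 reads. twist1b was in the same order over the groups, with the mutants nearly equal to each other (ratio 0.984, interval 0.879 to 1.101).

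Mutant 1 held 48.9 RPM of prrx1a and mutant 2 held 50.05, the control 27.2 and the library labelled UAS:Nr2f5 27.0, from 1702, 1135, 813 and 273 reads. The mutants formed one level and the other libraries a lower one, and within neither level did the libraries differ beyond counting error. Mutant 1 held 46.3 RPM of prrx1b and mutant 2 held 38.7, the control 35.7 and the library labelled UAS:Nr2f5 31.6, from 1610, 877, 1069 and 320 reads. Its order was the same as that of the Twist1 genes, but mutant 2 stood only 1.08-fold above the control, and its counting interval, 0.990 to 1.19, includes equality. For prrx1b the gap between the mutants (ratio 0.836, interval 0.769 to 0.908) was of similar size to the gap between mutant 2 and the library labelled UAS:Nr2f5 (1.22, interval 1.08 to 1.40).

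**Figure D1:**
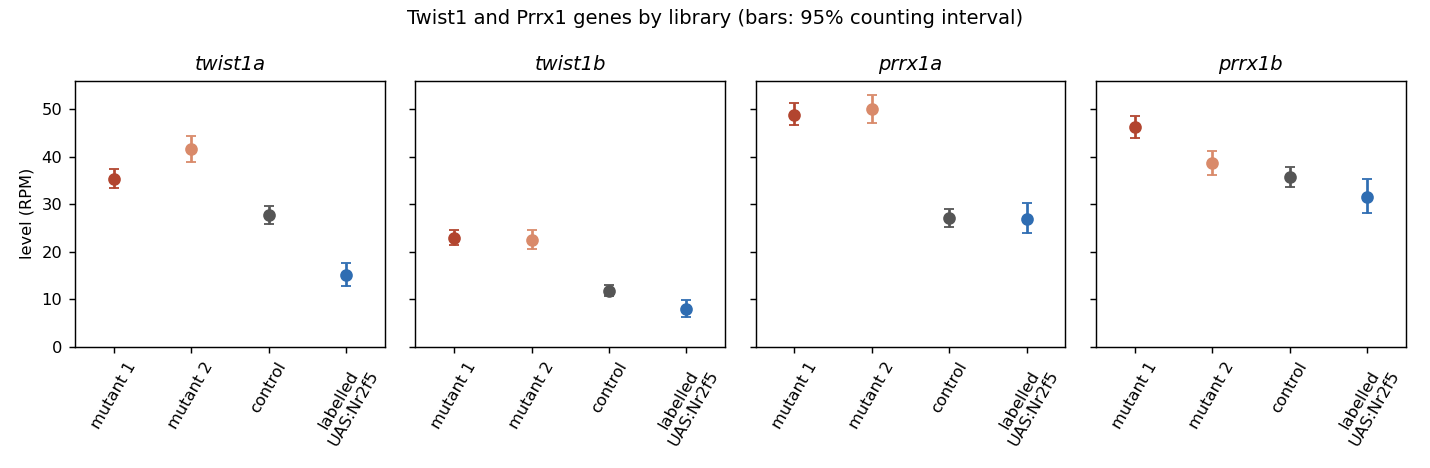
Level in RPM (vertical axis, from 0) of twist1a, twist1b, prrx1a and prrx1b in each of the 4 libraries, with bars for the 95% counting interval. The 2 mutants are highest in every panel, and prrx1a is at 27.2 RPM in the control and 27.0 in the library labelled UAS:Nr2f5.

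The comparison of the mutants with the control asks what goes with mutation of nr2f2 and nr2f5. twist1b averaged 22.8 ± 0.256 RPM in the mutants (SD, n = 2), 1.93-fold the control, and prrx1a 49.5 ± 0.794, 1.82-fold the control. twist1a averaged 38.5 ± 4.34 RPM, 1.39-fold the control, and prrx1b 42.5 ± 5.38, 1.19-fold. None of the 4 passed limma's test (2 had an unadjusted p under 0.05, as had 1505 of all genes) after Benjamini-Hochberg adjustment over the 11391 genes whose mean reached 1 RPM. On the log2(RPM + 1) scale the difference was 0.84 ± 0.17 (SE) for prrx1a with an adjusted p of 0.0950, and 0.89 ± 0.20 for twist1b with an adjusted p of 0.116. It was 0.45 ± 0.19 for twist1a with a limma adjusted p of 0.390 and 0.24 ± 0.19 for prrx1b with 0.682.

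Genes that passed with higher levels in the mutants made up 0.0263% of all genes tested, and lower ones 1.01%. Both mutants lay above the control for 4 of 4 members, as for 39.1% of all genes tested. Among the log2 differences of all genes, that of twist1b was at percentile 98.1, that of prrx1a at 97.5, that of twist1a at 85.4 and that of prrx1b at 70.2. The members' median of 0.65 stands beside 0.03 over all genes. Since the members were chosen with earlier results of these data known, percentiles and medians here are description only. Only the mutant pair informs the spread (1 residual degree of freedom), and the single control is assumed to vary likewise; fitted to the mutants and control alone, it gave prrx1a an adjusted p of 0.0482, within a range of 0.0482 to 0.305 over the alternatives that have a test. Each library was also divided by a factor from the median log2(RPM + 1) difference of 11 arch crest markers from the control (crest scaling). The prrx1b difference then turned to −0.14, that of twist1a came to 0.08, that of twist1b to 0.52 and that of prrx1a to 0.46.

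The library labelled UAS:Nr2f5 was set against the control to ask what goes with that label, with 1 library on each side and no p-value. No gain of nr2f5 was seen in it, at 30.3 RPM against 28.8 in the control. twist1a was 1.84-fold lower, with a 95% counting interval of 1.55 to 2.20, and twist1b 1.49-fold lower (1.17 to 1.93). prrx1b was 1.13-fold lower (0.996 to 1.28), and prrx1a was level, at a ratio to the control of 0.993 (0.862 to 1.14). The intervals of twist1a and prrx1a do not overlap, so within these libraries those genes differed by more than counting error.

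None of the 4 was at least 2-fold apart on the log2(RPM + 1) scale, a size reached downwards by 9.17% and upwards by 6.79% of all genes tested. The members' median was −0.35, beside −0.11 over all genes, and their percentiles among all differences were 12.9 for twist1a, 25.5 for twist1b, 46.4 for prrx1b and 56.9 for prrx1a. The intervals cover counting error only, since reads amplified by PCR are not independent molecules. Scaling to arch crest markers brought twist1a to −0.34 and twist1b to −0.04, and put prrx1a at 0.50 and prrx1b at 0.35 above the control.

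The mutants were then compared with the library labelled UAS:Nr2f5, the contrast of mutation with labelled gain. This contrast and that with the control use the same mutant libraries. The single library labelled UAS:Nr2f5 is likewise assumed to vary as the mutants do, and twist1b rests on 80 reads in it. twist1b was 2.88-fold higher in the mutants (log2 difference 1.42 ± 0.20 SE, limma adjusted p = 0.0105), and twist1a 2.55-fold higher (1.29 ± 0.19, adjusted p = 0.0116). prrx1a was 1.84-fold higher (0.85 ± 0.17, adjusted p = 0.0232). prrx1b was 1.34-fold higher and did not pass (0.41 ± 0.19, limma adjusted p = 0.169).

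Thus 3 of 4 members passed as higher in the mutants, beside 11.2% of all genes tested, while 8.92% passed as lower. After median-ratio scaling of the libraries, 824 genes passed as higher and 1244 as lower, against 1271 and 1016 without it; after crest scaling the numbers were 502 and 3881. Both mutants lay above the library labelled UAS:Nr2f5 for 4 of 4 members and for 50.7% of all genes. Taken singly, mutant 1 was 2.35-fold and mutant 2 2.75-fold above that library for twist1a. The values for twist1b were 2.90-fold and 2.86-fold, and for prrx1a 1.82-fold and 1.86-fold. Scaled to arch crest markers the calls were lost, with 0.57 for twist1b (limma adjusted p = 0.0794), 0.41 for twist1a (0.176) and −0.04 for prrx1a (0.878). They were also lost with no filter on low genes, at adjusted p of 0.0980, 0.161 and 0.123, and the prrx1a call without the eBayes trend, at 0.0940.

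**Figure D2:**
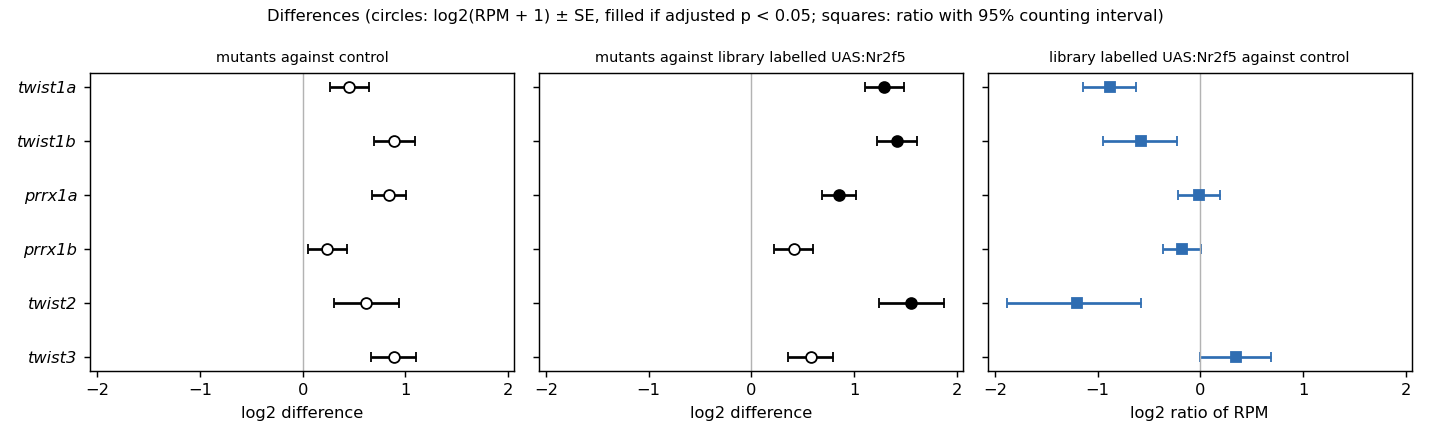
Differences of the 4 members and of twist2 and twist3 in the 3 comparisons; horizontal axes are log2 differences of log2(RPM + 1) with SE bars (circles, filled where the limma adjusted p is under 0.05) or log2 ratios of RPM with 95% counting intervals (squares). The members twist1a, twist1b and prrx1a have filled circles against the library labelled UAS:Nr2f5, and no gene has one against the control.

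The copies within a pair did not keep the same balance over the libraries. Reads are not divided by gene length, so a share has meaning only when set against the same share in another library. twist1a held 60.7% of the pair's reads in mutant 1 (95% exact binomial interval 58.5 to 62.8), 64.8% in mutant 2 (62.3 to 67.3), 70.2% in the control (67.5 to 72.8) and 65.7% in the library labelled UAS:Nr2f5 (59.2 to 71.7). The share was lower in both mutants than in the control, while the wide interval of the library labelled UAS:Nr2f5 overlapped those of all other libraries.

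prrx1a held 51.4% of the Prrx1 reads in mutant 1 (49.7 to 53.1), 56.4% in mutant 2 (54.2 to 58.6), 43.2% in the control (40.9 to 45.5) and 46.0% in the library labelled UAS:Nr2f5 (42.0 to 50.1). The mutants were above the control by more than their counting intervals, and differed from each other by more than counting error too. No test of the shares was run, since the control is 1 library, and how the authors' counting treated reads that match both copies is not given in the sources used here.

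**Figure D3:**
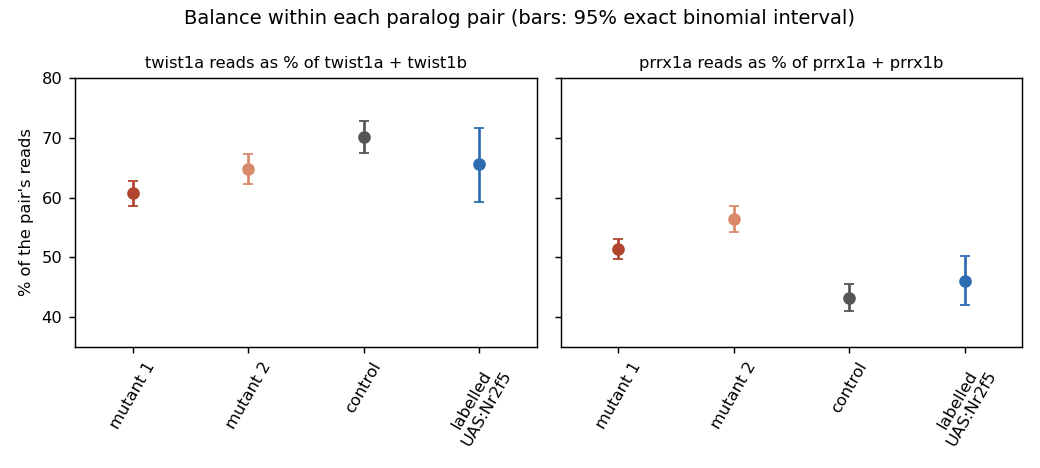
Share of a pair's reads (vertical axis, %, starting at 35) held by twist1a (left) and prrx1a (right) in each library, with 95% exact binomial intervals. The twist1a share is 70.2% in the control and 60.7% and 64.8% in the mutants, and the prrx1a share is 43.2% in the control and 51.4% and 56.4% in the mutants.

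Summed markers of other cell types also differed between the libraries, and all lists but that of fin bud mesenchyme were lowest in the mutants. The summed level of 10 muscle genes was 38.6 and 54.9 RPM in the mutants, 1352 in the control and 4544 in the library labelled UAS:Nr2f5, with 10 of 10 genes below the control in both mutants and 10 of 10 at least 2-fold above it in the other library. Summed epidermal markers (7 genes) were at 58.7 and 30.8 RPM in the mutants, 535 in the control and 1624 in the library labelled UAS:Nr2f5. Red blood cell markers ran at 111 and 44.0 RPM in the mutants, 441 in the control and 355 in the library labelled UAS:Nr2f5, and neuronal markers at 9.20, 7.14, 65.3 and 89.0 in that order. Glial markers summed to 8.09 and 9.02 RPM in the mutants and 47.3 in each other library, with mbpa at 0 in all of them. Of the 4 glial genes tested, 3 were below the control in both mutants and 1 was above it (log2 difference 1.65). Endothelial markers, which the fli1a gate could hold, summed to 8.71 and 14.2 RPM in the mutants, 14.9 in the control and 30.5 in the library labelled UAS:Nr2f5. Head mesoderm markers, 5 genes with tcf21 at 0 in mutant 2, summed to 7.90 and 8.60 RPM in the mutants, 18.2 in the control and 29.6 in the library labelled UAS:Nr2f5. Fin bud mesenchyme markers (3 genes) summed to 2.67 and 4.50 RPM in the mutants, 2.07 in the control and 0.790 in the library labelled UAS:Nr2f5, an order of groups like that of the members. Of these, fgf24 was at 0 in all but the control, and fgf10a, the 1 gene tested, passed as higher in the mutants than in the library labelled UAS:Nr2f5 (1.93 ± 0.39, limma adjusted p = 0.0251).

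The part of these other cells in the Twist and Prrx differences was not tested. In bulk samples fewer cells of a type and less RNA per cell cannot be told apart. The summed level of 11 arch crest markers was 341 and 349 RPM in the mutants, 263 in the control and 172 in the library labelled UAS:Nr2f5, the same order as the summed Twist1 and Prrx1 level of 154, 153, 102 and 81.6. Of these sums pdgfra alone gave 130 and 137, 101 and 66.5 RPM. The markers did not all share the order. Both mutants were above the control for 8 of the 11 and below it for 2, sox9b and tfap2b, beside 4454 and 3779 of all 11391 genes tested. In the library labelled UAS:Nr2f5, 3 markers were above the control (foxd3, ets1 and tfap2b) and 8 below it, beside 4834 and 6556 of all genes tested.

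Set against those 11 crest markers, the members separated. twist1a stood at 10.4% and 11.9% of the summed crest level in the mutants, 10.6% in the control and 8.79% in the library labelled UAS:Nr2f5, so its mutants straddled the control. twist1b stood at 6.73% and 6.47% in the mutants, 4.48% in the control and 4.60% in the library labelled UAS:Nr2f5. prrx1a stood at 14.4% and 14.3% in the mutants, 10.3% in the control and 15.7% in the library labelled UAS:Nr2f5, which puts the control below every other library. prrx1b stood at 13.6% and 11.1% in the mutants, 13.6% in the control and 18.4% in the library labelled UAS:Nr2f5. On this footing, described with no test, twist1b alone of the 4 had both mutants above both other libraries, and prrx1b had its highest value in the library labelled UAS:Nr2f5.

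**Figure D4:**
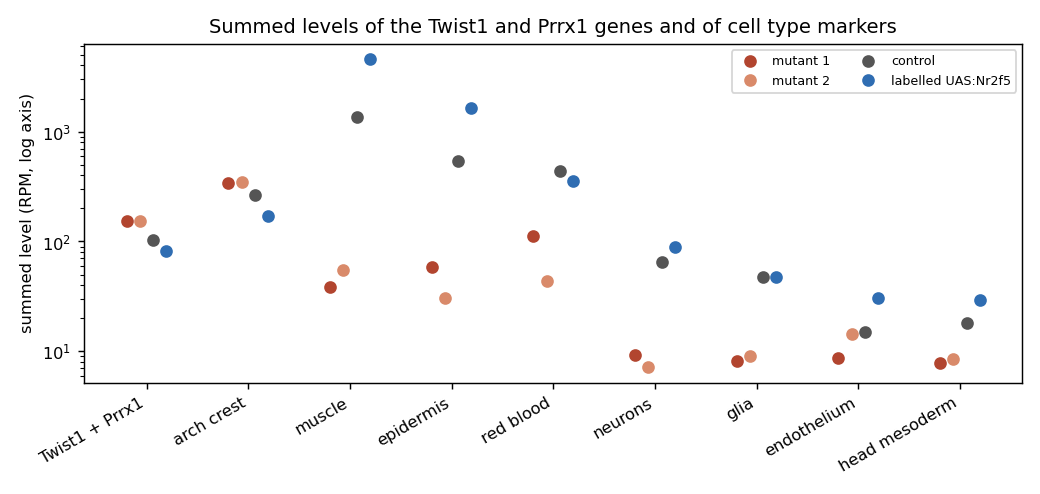
Summed level in RPM (vertical log axis) of the 4 Twist1 and Prrx1 genes and of each list of cell type markers except fin bud mesenchyme, 1 point per library. The Twist1 and Prrx1 genes and the arch crest markers are highest in the 2 mutants, and the muscle markers range from 38.6 RPM in mutant 1 to 4544 in the library labelled UAS:Nr2f5.

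Close relatives shared the members' order in part. Of 11 bHLH and paired-type relatives described here, 8 were tested; scxb, tcf15 and shox2 had a mean below 1 RPM. twist2, a dermal and skeletal Twist factor, was at 10.2 and 7.76 RPM in the mutants, 5.44 in the control and 2.37 in the library labelled UAS:Nr2f5. Both other libraries were below both mutants, and it passed against the library labelled UAS:Nr2f5 (log2 difference 1.56 ± 0.31 SE, limma adjusted p = 0.0251), though not after crest scaling (0.0701). twist3 was at 15.6 and 15.1 RPM in the mutants, 7.85 in the control and 9.97 in the library labelled UAS:Nr2f5. It passed neither test (adjusted p = 0.139 and 0.110 by limma) and, unlike the other Twist genes, was not lowest in the library labelled UAS:Nr2f5.

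hand2, a bHLH factor of the ventral arch, was at 34.8 and 23.8 RPM in the mutants, 15.2 in the control and 3.46 in the library labelled UAS:Nr2f5, and passed against the latter (2.74 ± 0.27, limma adjusted p = 0.00579). shox, a paired-type homeobox gene of limb growth in human, was at 4.74 and 3.31 RPM in the mutants, 5.54 in the control and 1.58 in the library labelled UAS:Nr2f5, 3.51-fold lower there than in the control (2.10 to 6.28). On the log2(RPM + 1) scale after crest scaling that difference was −0.996, just under 2-fold. alx4a, a frontonasal factor, was level everywhere, at 10.5 and 9.39 RPM in the mutants, 10.1 in the control and 10.3 in the library labelled UAS:Nr2f5. alx1 was at 4.51 and 7.06 RPM in the mutants, 3.24 in the control and 7.01 in the library labelled UAS:Nr2f5. There it was 2.16-fold above the control (1.57 to 2.97), or 0.92 on the log2(RPM + 1) scale. Of the 8 tested relatives, 4 were above the control in that library and 4 below it, beside 4834 and 6556 of all 11391 genes tested. After crest scaling hand2 kept its call (limma adjusted p = 0.00481). Over the 8 tested relatives, 0 passed against the control by limma, with 2 at an unadjusted p under 0.05, 2 passed as higher in the mutants than in the library labelled UAS:Nr2f5 (11.2% of all genes), and 2 were at least 2-fold lower in the library labelled UAS:Nr2f5 than in the control (9.17% of all genes). The medians were 0.35, 0.36 and −0.02, beside 0.03, 0.17 and −0.11 over all genes. After crest scaling 1 passed as higher and 2 as lower against the library labelled UAS:Nr2f5, beside 502 and 3881 of all 11391 genes. The relatives' median was then −0.37, beside −0.60 over all genes.

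Dimer partners and their inhibitors followed. Of 9 E protein and Id genes, 8 were found and 6 tested. The E protein gene tcf3b was at 120.4 and 138 RPM in the mutants, 103 in the control and 67.0 in the library labelled UAS:Nr2f5. It passed against the latter (0.93 ± 0.18, limma adjusted p = 0.0227), and was 1.53-fold lower there than in the control (1.41 to 1.67). tcf12, the E protein whose human gene is also mutated in suture fusion, was at 46.0 and 38.6 RPM in the mutants, 42.2 in the control and 26.9 in the library labelled UAS:Nr2f5. That is no shift in the mutants and 1.57-fold lower in the library labelled UAS:Nr2f5 (1.38 to 1.80).

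Among the inhibitors, id1 was at 136.8 and 101.5 RPM in the mutants, 65.0 in the control and 58.6 in the library labelled UAS:Nr2f5. It passed against the latter (1.00 ± 0.22, limma adjusted p = 0.0314), as did id2a, at 21.8 and 22.3 RPM in the mutants, 14.4 in the control and 10.1 in the library labelled UAS:Nr2f5 (1.06 ± 0.19, limma adjusted p = 0.0199). id3 was at 29.2 and 30.7 RPM in the mutants against 18.4 in the control and 20.3 in the library labelled UAS:Nr2f5, and passed neither test. Against the control, the library labelled UAS:Nr2f5 had id1 1.11-fold lower (1.01 to 1.22) and id2a 1.43-fold lower (1.15 to 1.79), the latter like the E protein gene tcf3a (1.43-fold, 1.23 to 1.66). Over the 6 genes, 0 passed limma against the control, with 3 at an unadjusted p under 0.05 beside 1505 of all 11391 genes. As higher than the library labelled UAS:Nr2f5 3 passed, beside 11.2% of all genes. The medians were 0.45 and 0.80, beside 0.03 and 0.17 over all genes, and −0.49 between the library labelled UAS:Nr2f5 and the control. After crest scaling the tcf3b, id1 and id2a calls were lost, at limma adjusted p of 0.939, 0.782 and 0.475. The list's median against the library labelled UAS:Nr2f5 turned to −0.09, beside −0.60 over all genes. Without the eBayes trend these 3 calls were lost too, at 0.0862, 0.10 and 0.0622, and id1 also after median-ratio scaling (0.0599) and with a pseudocount of 0.1 (0.0593).

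Genes of the epithelial-to-mesenchymal transition, in which Twist proteins act beside Snail and Zeb factors, were all found, 12 of 12. snai2, a repressor of epithelial genes, was at 45.8 and 37.2 RPM in the mutants, 19.9 in the control and 11.2 in the library labelled UAS:Nr2f5. It is also among the 11 crest markers. Its difference from the control was 1.02 ± 0.20 (limma adjusted p = 0.0976) and from the library labelled UAS:Nr2f5 1.80 ± 0.20 (adjusted p = 0.00707). snai1a was at 22.6 and 20.3 RPM in the mutants, 10.99 in the control and 9.28 in the library labelled UAS:Nr2f5, the last gap passing (adjusted p = 0.0199 by limma). zeb1a was level between mutants and control, at 13.1 and 12.7 against 11.4 RPM, and low at 4.44 in the library labelled UAS:Nr2f5 (adjusted p = 0.0170 for mutants against it, by limma). The other Zeb genes were not low in that library. zeb1b was at 14.6 RPM there against 13.7 in the control, zeb2a at 26.5 against 21.4 and zeb2b at 4.54 against 3.31, and each passed neither test. After crest scaling the snai2 call held (limma adjusted p = 0.0204), and those of snai1a (0.347) and zeb1a (0.110) were lost; that of snai1a was also lost without the trend (0.0582).

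The fibronectin genes, which encode a matrix protein of migrating cells, went opposite ways. fn1b was at 1.98 and 0.661 RPM in the mutants, 5.54 in the control and 7.90 in the library labelled UAS:Nr2f5, and was lower in the mutants than in the latter (−1.999 ± 0.46, limma adjusted p = 0.0337), while fn1a was higher (0.61 ± 0.16, adjusted p = 0.0476). The fn1a difference turned to −0.29 after crest scaling, and its call was lost with a pseudocount of 0.1 (0.0653), after median-ratio scaling (0.130) and without the trend (0.170). The fn1b call was lost with a pseudocount of 0.1 (0.0853). cdh11, a mesenchymal cadherin, was at 109.9 and 120.0 RPM in the mutants, 77.2 in the control and 79.7 in the library labelled UAS:Nr2f5, a pattern close to that of prrx1a, and passed neither test. vim and cdh2 went the other way and passed neither test. vim was at 2.72 and 3.13 RPM in the mutants, 4.34 in the control and 6.91 in the library labelled UAS:Nr2f5, and cdh2 at 42.8 and 46.7, 51.6 and 55.4. Both mutants were above the control for 8 of the 12 genes and below it for 3, beside 4454 and 3779 of all 11391 genes tested. Of the 12 genes, 0 passed limma against the control, with 4 at an unadjusted p under 0.05, and 4 passed as higher and 1 as lower against the library labelled UAS:Nr2f5 (11.2% and 8.92% of all genes). The medians were 0.15 and 0.40 in those comparisons, and 0.07 between the library labelled UAS:Nr2f5 and the control. After crest scaling 1 passed as higher and 5 as lower against the library labelled UAS:Nr2f5, beside 502 and 3881 of all 11391 genes. The list's median was then −0.44, beside −0.60 over all genes. For that library against the control it became 0.58, beside 0.33 over all genes.

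The last list held 14 genes tied to Twist1 or Prrx1 activity in mouse, of which 13 were found and 11 tested. The Fgf receptor gene fgfr1a was at 35.3 and 36.0 RPM in the mutants, 31.7 in the control and 17.2 in the library labelled UAS:Nr2f5, and its copy fgfr1b at 14.1 and 11.9, 8.92 and 4.84. Both passed against the library labelled UAS:Nr2f5, with limma adjusted p of 0.0168 and 0.0238, and both lost the call after crest scaling (0.621 and 0.191) and without the trend (0.0679 and 0.0508). The other Fgf receptor genes of the list did not pass there: fgfr2 (0.41, limma adjusted p = 0.134), fgfr3 (−0.13, 0.683) and fgfr4 (0.04, 0.887). The cartilage factor gene sox9a was at 68.5 and 83.0 RPM in the mutants, 44.0 in the control and 21.4 in the library labelled UAS:Nr2f5 (1.77 ± 0.19 for mutants against the latter, limma adjusted p = 0.00624), a call that held after crest scaling (0.0268). tnc, which encodes the matrix protein tenascin-C, was at 288 and 305 RPM in the mutants, 299.5 in the control and 252 in the library labelled UAS:Nr2f5. The periostin gene postnb was highest in the library labelled UAS:Nr2f5, at 139.9 RPM, against 94.8 and 103 in the mutants and 94.6 in the control. Neither matrix gene passed a test in the fit described, where 0 genes of the list passed as lower in the mutants. After median-ratio scaling 1 gene of the list passed as lower against the library labelled UAS:Nr2f5. With columns scaled to equal totals 1 passed as lower too. Over the 11 genes, 0 passed limma against the control, with 1 at an unadjusted p under 0.05, and 3 passed as higher in the mutants than in the library labelled UAS:Nr2f5 (11.2% of all genes). The medians were 0.15 and 0.41, and −0.25 between the library labelled UAS:Nr2f5 and the control. After crest scaling 1 passed as higher and 3 as lower against the library labelled UAS:Nr2f5, beside 502 and 3881 of all 11391 genes. The list's median was then −0.50, beside −0.60 over all genes.

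**Figure D5:**
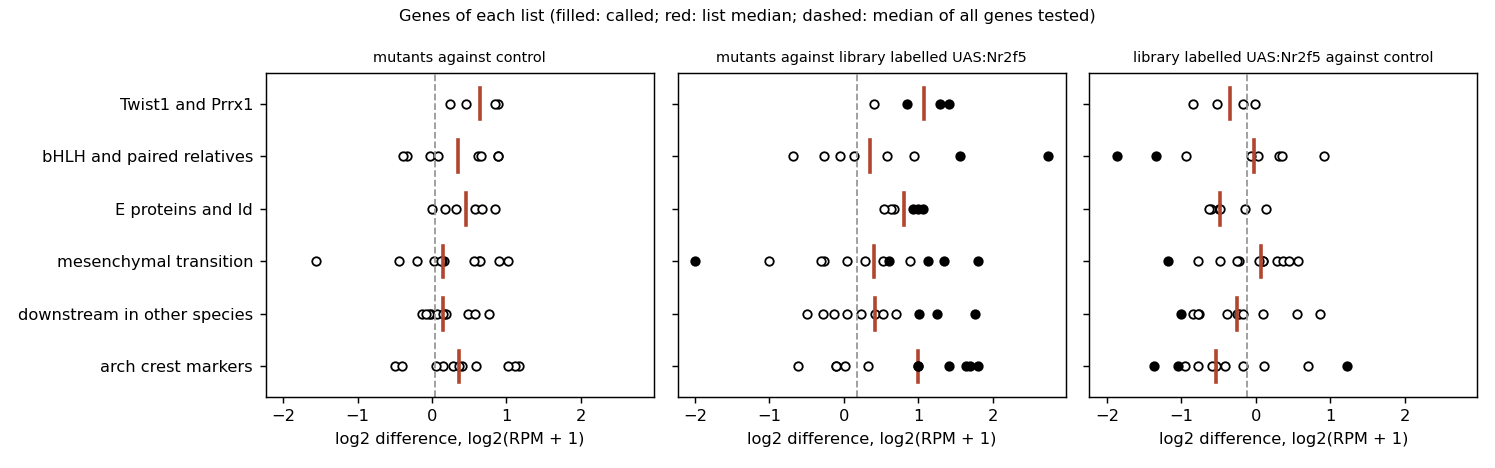
Log2 differences on log2(RPM + 1) (horizontal axis) of the tested genes of each list in the 3 comparisons; filled points passed limma (left and middle) or were at least 2-fold apart (right), red marks are list medians and dashed lines the median of all genes tested. The members' medians of 0.65, 1.07 and −0.35 lie to the right, to the right and to the left of the dashed lines at 0.03, 0.17 and −0.11.

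Genes with a profile like each member's were named by the root-mean-square difference (RMS) of their log2(RPM + 1) values, centred over the 4 libraries, among 5293 other genes averaging 5 RPM or more. Closest to twist1a were POLRMT at an RMS of 0.0187, polr2c at 0.0251 and cd248a at 0.0259. Closest to twist1b were phf6 at 0.0396, si:dkey-118j18.2 at 0.0648 and the Notch receptor gene notch2 at 0.0683, the last at 169.8 and 161 RPM in the mutants, 98.8 in the control and 61.9 in the library labelled UAS:Nr2f5. Closest to prrx1a were the Eph receptor gene ephb4b at 0.0340, the guidance gene slit3 at 0.0374 and dock10 at 0.0416. Closest to prrx1b were scaf1 at 0.0180, socs5b at 0.0203 and lrpap1 at 0.0210.

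The copies of a pair were not each other's nearest match. twist1b ranked 446th by likeness to twist1a (RMS 0.200), and prrx1b ranked 1060th by likeness to prrx1a (0.286). prrx1a was nearer to twist1b (0.239) than to its own copy prrx1b. Likeness over 4 libraries describes these libraries and carries no test.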

How the data were processed

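Embryos developed at 28.5 °C, were moved to 22 °C at 27 hpf, and, per the labels' protocols, SMARTer cDNA was made into Kapa libraries read as 75 bp pairs. The authors deposited 1 table of values for 31953 genes in 4 libraries. The file calls its values TPM; they were taken as RPM as deposited by the authors, because 88.4% to 94.0% of low values in a library were whole multiples of 1 step within 0.02 read, whatever the gene. All 16 values of the members were whole reads within that tolerance. The scale of RPM is assumed, and no count test was run. The submitters' processing notes name GRCz10, TopHat2 and Partek; versions and roles are not given in the sources used here.

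The 11391 genes whose mean reached 1 RPM entered the test on log2(RPM + 1) with limma 3.58.1 (lmFit, eBayes with trend; R 4.3.3), with 1 mean per group and Benjamini-Hochberg adjustment over all genes at a threshold of 0.05. Reads were implied by dividing values by the step; ratios carry exact conditional binomial intervals, shares Clopper-Pearson and levels Poisson 95% intervals, all for counting error only. Crest scaling set the median log2 difference of 11 arch crest markers (snai2 among them, members left out) from the control to 0. Members and lists were chosen with earlier results of these data known. Named genes are the members, list genes, the 3 genes most like each member, the mutated nr2f2 and nr2f5 and, chosen after values were seen, neighbours of the members; tcf4, msx1a, crestin and msc were not matched. msx1b, msx2b and ets1 were matched by gene identifier. RefSeq names are from the GRCz12tu table, whose start positions served only to order the genes when neighbours were picked.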

Additional observations from a re-analysis of the deposited data

How the results depend on the processing

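The crest marker scaling moved the median gene from 0.03 to −0.27 for the mutants against the control, from 0.17 to −0.60 against the library labelled UAS:Nr2f5 and from −0.11 to 0.33 for that library against the control. Against the control it turned prrx1b to −0.14 and gave 0.075 for twist1a, 0.523 for twist1b and 0.463 for prrx1a. Against the library labelled UAS:Nr2f5 it gave 0.41 for twist1a, 0.567 for twist1b, −0.042 for prrx1a, −0.485 for prrx1b and −0.291 for fn1a. For that library against the control it gave −0.335 for twist1a, −0.043 for twist1b, 0.504 for prrx1a and 0.346 for prrx1b. With no filter on low values, the differences of 1.29 (twist1a), 1.417 (twist1b) and 0.853 (prrx1a) stayed while their calls were lost, as was that of prrx1a (0.853) without the trend, with those of tcf3b, id1, id2a, snai1a, fn1a, fgfr1a and fgfr1b; the fit to mutants and control alone called prrx1a (0.843).

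Counts of calls against the control were 118 in the fit described, 22 with a pseudocount of 0.1, 24 without the trend, 350 with the compared groups only, 399 with crest scaling and 0 with no filter (limma, 3803 at an unadjusted p under 0.05). Against the library labelled UAS:Nr2f5, 2287 became 1449 with a pseudocount of 0.1, 4383 with crest scaling, and 0 with no filter (limma, 5270 unadjusted). Genes 2-fold apart between that library and the control numbered 1818, 2922 with a pseudocount of 0.1 and 212 with 5; after median-ratio scaling 1024 were higher and 819 lower, against 773 and 1045, and after crest scaling 1908 and 568. The 0 counts mean that no call of any gene named here held without the filter. The causes were not tested. Leaving out 1 mutant leaves no residual degree of freedom, so it gave values with no test and no counts. No paired analysis was possible because 2 of the groups hold a single library. Depth limits the library labelled UAS:Nr2f5 most, where twist1b rests on 80 reads and 3 reads are worth 0.296 RPM.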

Other observations

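Protein-coding neighbours of prrx1a, prrx1b and twist1b, by the RefSeq order of genes and chosen after values were seen, are given as values only. Neighbours of twist1a and the second neighbour of prrx1b were not analysed here. The kinesin-associated protein gene kifap3b, next to prrx1a, was at 6.15 and 5.82 RPM in the mutants, 5.34 in the control and 6.42 in the library labelled UAS:Nr2f5. On the other side of prrx1a, mfsd12a was at 0.977 and 0.661 RPM in the mutants, 0.635 in the control and 1.38 in the library labelled UAS:Nr2f5. gorab, a Golgi gene next to prrx1b, was at 2.76 and 1.32 RPM in the mutants, 1.97 in the control and 1.78 in the library labelled UAS:Nr2f5. The histone deacetylase gene hdac9b, next to twist1b, was below 1 RPM in every library, and tmem196b, on its other side, was listed at 0 in every library.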
